A study of Mus musculus with 12 samples.

Results

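The response of gene expression to a tryptophan-free diet was compared between livers carrying MYC-driven tumors and xenograft tumors of a mouse liver cancer cell line. All 12 libraries of polyA RNA in the series entered 1 fit, with 3 mice in each of 4 groups, and every gene was asked whether its change on the No-Trp diet differed between the models. Of the 24062 genes counted, 15472 had enough reads to be tested. The livers came from male FVB mice carrying LAP-tTA and TRE-MYC, in which the LAP promoter drives the tetracycline transactivator in hepatocytes and a human MYC transgene is expressed once doxycycline is withdrawn at birth. These mice ate the control diet (mice 101, 102 and 103) or the No-Trp diet (mice 105, 107 and 108). The xenografts were HCC53N cells, a single line of liver tumor cells that lack p53 and overexpress mutant NRAS, implanted subcutaneously in female NOD SCID mice. Their hosts ate the control diet (mice 40, 41 and 43) or the No-Trp diet (mice 35, 36 and 37). The diets lasted 21 days in each group, and the labels give no age for these animals. NOD SCID hosts lack mature B and T cells and keep other stromal cells. The labels give the cancer cell genotype of all 12 samples as FVB MYC ON and derive the injected cells from Myc tumors, and whether HCC53N cells still express the MYC transgene could not be settled. The models differ in tissue, strain, sex, labelled p53 and NRAS status, site and host immunity at once, and the parts of these differences in the results cannot be told apart.

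Tryptophan is an essential amino acid that must come from food, and liver cells take it up through membrane transporters and degrade most of it through the kynurenine pathway. Cells that lack an amino acid are known to activate the kinase GCN2 and the transcription factor ATF4, which raises genes of amino acid transport and synthesis. The livers of fasting or protein-restricted animals use fat as fuel under the control of the receptor PPARA. MYC drives genes of the cell cycle and of ribosome production, so both growth and nutrient programs could respond to the diet in either model.

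Libraries held 14660963 to 26085349 reads on genes. The precursor of ribosomal RNA, Rn45s, took 12.1% of the reads of control liver 101, 2.22% of control liver 102 and at most 0.758% elsewhere. Values below are CPM, reads of a gene scaled to a common library depth by edgeR, with TMM factors that correct for such differences in composition. Libraries 101, 108, 41 and 43 carry a mark of resubmission. The labels of sex and tissue held in every library, since the Y-linked gene Ddx3y was at 74.1 CPM or more in the 6 livers and at most 1.34 in the 6 xenografts. Xist, the transcript of the inactive X chromosome, was at most 14.6 CPM in the livers and at least 61.6 in the xenografts. Alb, which encodes the serum protein albumin, lay between 4522 and 88176 CPM in the livers and between 74.8 and 344 in the xenografts, which still carry a low level of hepatocyte transcripts. In bulk tissue, fewer cells of a type and less RNA per cell cannot be told apart. For livers of this MYC model, the paper reports lower weights and fewer and smaller tumors on the No-Trp diet. Control and No-Trp livers are therefore not like tissue with a different diet alone. The share of tumor tissue in each liver library was not measured here. Its part in the liver diet changes, and so in the interactions, was not tested.

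The diet change differed between the models in 1966 genes, which is 12.7% of those tested. A gene was called when its interaction, the log2 diet change in the livers minus that in the xenografts, was at least 1 in size with an adjusted p of at most 0.05 (edgeR's quasi-likelihood test with Benjamini-Hochberg adjustment). The interaction was positive in 930 genes (6.01%) and negative in 1036 (6.7%), so 47.3% of the calls were positive. Scaled by library totals alone, the median interaction of all genes moved from -0.03 to -0.41 and 19.3% of calls were positive (437 positive and 1825 negative). Within the livers, the No-Trp diet raised 1442 genes (9.32%) and lowered 1317 (8.51%). Within the xenografts it raised 18 (0.116%) and lowered 5 (0.0323%), while 2207 genes had an unadjusted p under 0.05, against 6454 in the livers. These shares over all genes are the background for every count of a gene list below. The 23 xenograft calls became 264 with DESeq2 (176 up and 88 down). They became 80 without control liver 102, 60 without No-Trp liver 107, 8 without control xenograft 43 or No-Trp xenograft 37, 12 without 103 or 105, 13 without 40 and 15 without 108. The median standard error of a diet change was nearly the same in the livers (0.285) and the xenografts (0.282). Across all 15472 genes, the changes in the livers and in the xenografts had a Pearson correlation of -0.02, given as a description since genes are not independent. Leaving out each of the 12 libraries in turn kept 805 of the 1966 calls in all cases. The total was 916 without control liver 103, 1249 without No-Trp liver 107, 1252 without control xenograft 43, 1294 without No-Trp xenograft 36 and 1287 without No-Trp xenograft 37. With only the 8 libraries that lack the resubmission mark, which leaves 1 control xenograft, 9 positive and 6 negative interactions were called.

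**Figure D1:**
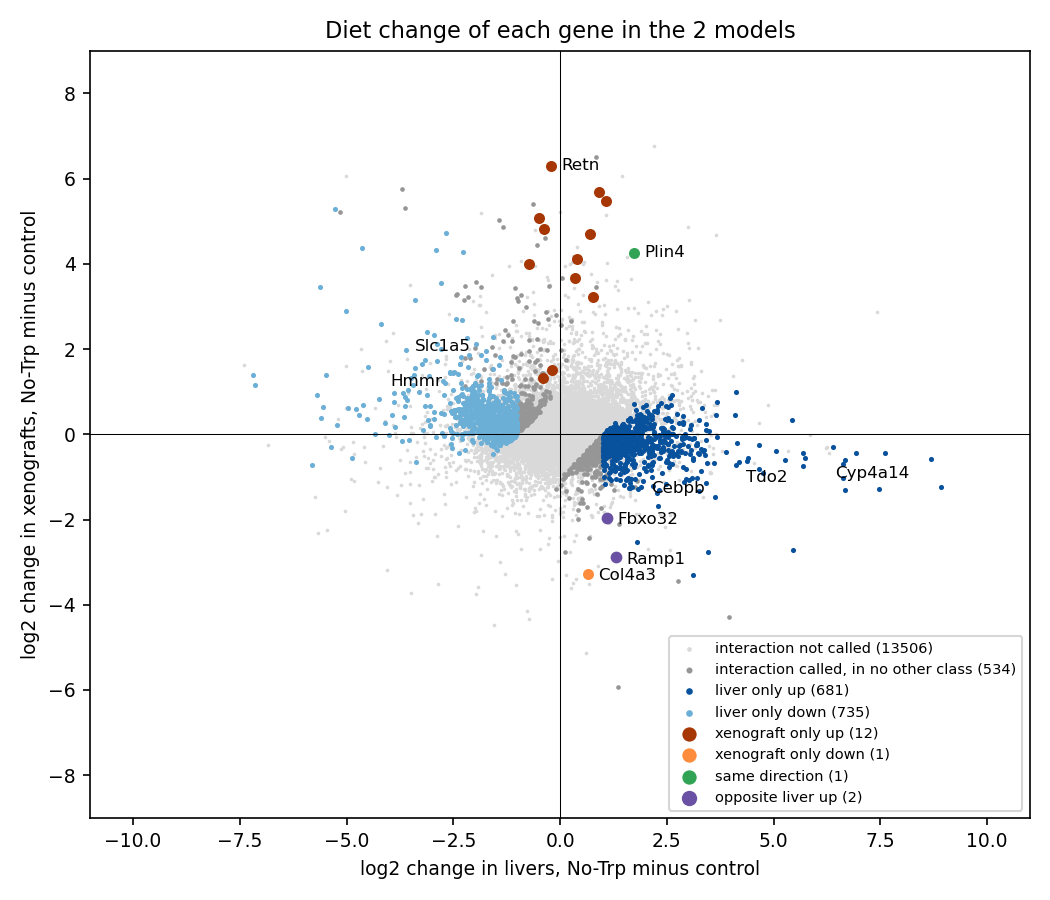
Each point is 1 of 15472 genes. The x axis is its log2 change in the livers and the y axis its log2 change in the xenografts, both as No-Trp minus control; colors mark the classes of genes with a called interaction. Most called genes lie along the horizontal axis (681 genes higher and 735 lower in the livers, with a xenograft adjusted p above 0.05), 12 lie near the upper vertical axis, and 2 genes changed in both models in opposite directions.

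Only 2 genes passed the test in both models with opposite signs, Ramp1 and Fbxo32, and both were higher on the No-Trp diet in the livers and lower in the xenografts. No gene was called lower in the livers and higher in the xenografts with edgeR. DESeq2, an alternative test of the same counts, gave 10 genes in the first class and 17 in the second. Fitted changes of opposite sign made up 1697 of the 1966 interaction calls, but for most of these the xenograft change was small. A call requires a large difference between the 2 changes, so the selection itself favors opposite signs. The count is therefore no evidence of opposite regulation. In 625 of them both changes were at least 0.5 in size (4.04% of the genes tested), with 233 higher and 392 lower in the livers. In 351 of the calls both diet changes had an unadjusted p under 0.05 with opposite signs, 162 higher and 189 lower in the livers. Over all 15472 genes tested, 6454 had such a p in the livers and 2207 in the xenografts. The number expected from unrelated changes was not worked out, so the 351 are not read as opposite regulation.

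Ramp1 (chr1:91179822-91225196, GRCm38, plus strand) encodes a membrane protein that pairs with the calcitonin receptor-like receptor to form the receptor for the peptide CGRP. Its level in the livers was 2.51, 2.09 and 0.839 CPM on the control diet and 4.004, 3.998 and 5.44 CPM on the No-Trp diet. In the xenografts it was 22.2, 20.7 and 20.5 CPM on the control diet and 3.85, 2.14 and 2.55 CPM on the No-Trp diet. The diet groups did not overlap in either model, and each No-Trp xenograft lay below each No-Trp liver. Over all genes tested, the diet groups did not overlap for 45.5% in the livers and 22% in the xenografts. These shares stand beside each mention of groups without overlap below. The log2 change was 1.31 ± 0.38 (SE) in the livers, with an adjusted p of 0.0215, and -2.89 ± 0.38 in the xenografts, with an adjusted p of 0.0102. The interaction was 4.20 ± 0.53 and stayed between 3.85 and 4.52 when any 1 library was left out. The liver change lost its call without control liver 103 or No-Trp liver 108 (adjusted p = 0.0637 and 0.0586), and the xenograft change without No-Trp xenograft 37 (adjusted p = 0.0648).

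Fbxo32 (chr15:58175879-58214932, minus strand) encodes atrogin-1, a ubiquitin ligase subunit known from wasting muscle. It shares its locus with Gm15943 on the other strand, and the strand setting of the counting is not given in the sources used here. Its level rose in the livers from 2.702, 4.45 and 4.59 CPM to 9.38, 9.35 and 6.45 CPM. It fell in the xenografts from 35.9, 67.4 and 49.7 CPM to 14.9, 15.7 and 8.40 CPM, again without overlap between the diets. The log2 changes were 1.10 ± 0.32 in the livers and -1.97 ± 0.32 in the xenografts, with adjusted p-values of 0.0237 and 0.0436. Its interaction of 3.07 ± 0.45 was called without each library in turn. The xenograft change itself was called in only 4 of these 12 fits (those without 101, 102, 107 or 40), with an adjusted p of up to 0.145 without control xenograft 43. The liver change lost its call without 101, 105 or 107 (adjusted p = 0.0879, 0.0681 and 0.0774).

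Further genes with a called interaction had fitted changes above 0 in the livers and below 0 in the xenografts, without being called in both. Cebpb (chr2:167688915-167690418, plus strand), a transcription factor of liver metabolism and of the stress response, had the smallest adjusted p of the interaction together with 6 other genes (0.00165). It stood at 30.8, 40.2 and 33.1 CPM in the control livers and 107, 179 and 97.7 CPM in the No-Trp livers, and at 69.9, 76.6 and 71.1 CPM in the control xenografts and 29.0, 36.2 and 27.2 CPM in the No-Trp xenografts. The liver change of 1.89 ± 0.22 was called, while the xenograft change of -1.24 ± 0.22 had an adjusted p of 0.0566. Tmem189 overlaps it on the other strand. Id3, an inhibitor of basic helix-loop-helix transcription factors, fell in the xenografts from 60.8, 67.7 and 83.5 CPM to 31.1, 33.8 and 36.9 CPM (log2 change -1.06 ± 0.17, adjusted p = 0.0436). In the livers its level went from 16.1, 17.1 and 14.7 CPM to 36.6, 26.1 and 28.2 CPM, a log2 change of 0.93 ± 0.18 that is just under the threshold of 1. Both genes had diet groups that did not overlap in either model. In all libraries left out in turn the interactions of Cebpb (3.12 ± 0.32) and Id3 (1.99 ± 0.25) remained called, but the xenograft change of Id3 was called in only 3 of the 12 fits.

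Vmp1, which encodes a membrane protein of autophagosome formation, followed the same course at higher levels, from 134 to 145 CPM in the control livers to 301 to 402 CPM in the No-Trp livers. In the xenografts it lay between 543 and 808 CPM on the control diet and between 364 and 418 CPM on No-Trp food, with an interaction of 2.16 ± 0.25. Its locus holds the precursor of the microRNA Mir21a on the same strand. Adamdec1, a secreted metalloprotease, was at 0.479 to 2.25 CPM in the control livers and 3.19 to 4.98 CPM in the No-Trp livers, against 13.4 to 14.0 CPM and 2.14 to 2.50 CPM in the xenografts. Its interaction was 4.32 ± 0.67, with a xenograft change of -2.53 ± 0.47 at an adjusted p of 0.0573. Igfbp4, a secreted binding protein of insulin-like growth factors, rose in the livers by 1.28 ± 0.27 on the log2 scale. In the xenografts its level was 1331 to 1475 CPM on the control diet and 693 to 887 CPM without tryptophan, and the interaction was 2.14 ± 0.38.

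Feedback genes of the RAS and ERK pathway, through which mutant NRAS signals, gave few calls. Of 20 such genes, 3 had a called positive interaction, beside 6.01% of all genes, and none a negative one, while 1 of each sign was called with library totals. In the livers 2 were called and in the xenografts none, and the median change was 0.64 in the livers and -0.31 in the xenografts. Dusp6, a phosphatase that inactivates ERK, was at 540.0, 558 and 543 CPM in the control xenografts and 367, 362 and 325 CPM in the No-Trp xenografts. In the livers it was at 24.5, 25.8 and 23.3 CPM on the control diet and 34.5, 71.3 and 33.1 CPM on the No-Trp diet. The diet groups did not overlap in either model, neither change was called alone, and the interaction was 1.56 ± 0.35. Etv1, an ETS transcription factor downstream of ERK, had an interaction of 1.38 ± 0.32. The calls of Dusp6 and Etv1 held without each library in turn, and that of the third gene, Spred1, in 3 of 12 such fits.

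Some amino acid transporters gave the other direction, and the 3 with the largest interactions carry glutamine, large neutral amino acids and cationic amino acids. Slc1a5 (chr7:16781340-16798274, plus strand), a glutamine and neutral amino acid transporter, fell in the livers from 111, 72.1 and 119 CPM to 31.9, 9.16 and 49.1 CPM. In the xenografts it went from 39.6, 31.6 and 22.5 CPM to 76.8, 108 and 130.2 CPM. The diet groups did not overlap in either model, and the level on the No-Trp diet was lowest in liver 107 and highest in xenograft 37. The liver change of -1.75 ± 0.47 was called (adjusted p = 0.0174) and the xenograft change of 1.75 ± 0.47 was not (adjusted p = 0.149, 95% interval 0.71 to 2.78). The interaction was -3.49 ± 0.67, with an adjusted p of 0.0109, and it was called without each library in turn. For SLC1A5 protein the paper reports the reverse in livers of this MYC model, a higher level on the No-Trp diet by Western blot. The values here are RNA, and the reason for the difference was not tested.

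Slc7a5 (chr8:121881150-121907694, minus strand) encodes LAT1, the carrier through which tryptophan itself enters many tumor cells. Its level was 111, 128 and 175 CPM in the control livers and 56.2, 16.5 and 67.0 CPM in the No-Trp livers. The xenografts held 65.7, 56.0 and 44.5 CPM on the control diet and 88.0, 182 and 208 CPM on the No-Trp diet. Neither pair of groups overlapped, and the interaction was -3.09 ± 0.64 with an adjusted p of 0.0129. Gm20388 overlaps Slc7a5 on the other strand. The cationic amino acid transporter Slc7a1 (chr5:148327410-148399904, minus strand) repeated the pattern with an interaction of -2.80 ± 0.60. Over the whole list of 20 amino acid transporters, 5 had a called negative interaction (3 without control liver 103), 1 a positive one and 14 none. The shares over all genes were 6.7% negative and 6.01% positive. In the livers 3 of the 20 were called higher and 5 lower. Summed over the list, control livers held 1553 to 2381 CPM and No-Trp livers 4488 to 6766 CPM. Xenografts held 1039 to 1171 CPM on the control diet and 1240 to 1592 CPM on the No-Trp diet. The list's median change was -0.35 in the livers and 0.45 in the xenografts, beside medians of -0.02 and 0.01 over all genes, and none of its members was called in the xenografts.

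**Figure D2:**
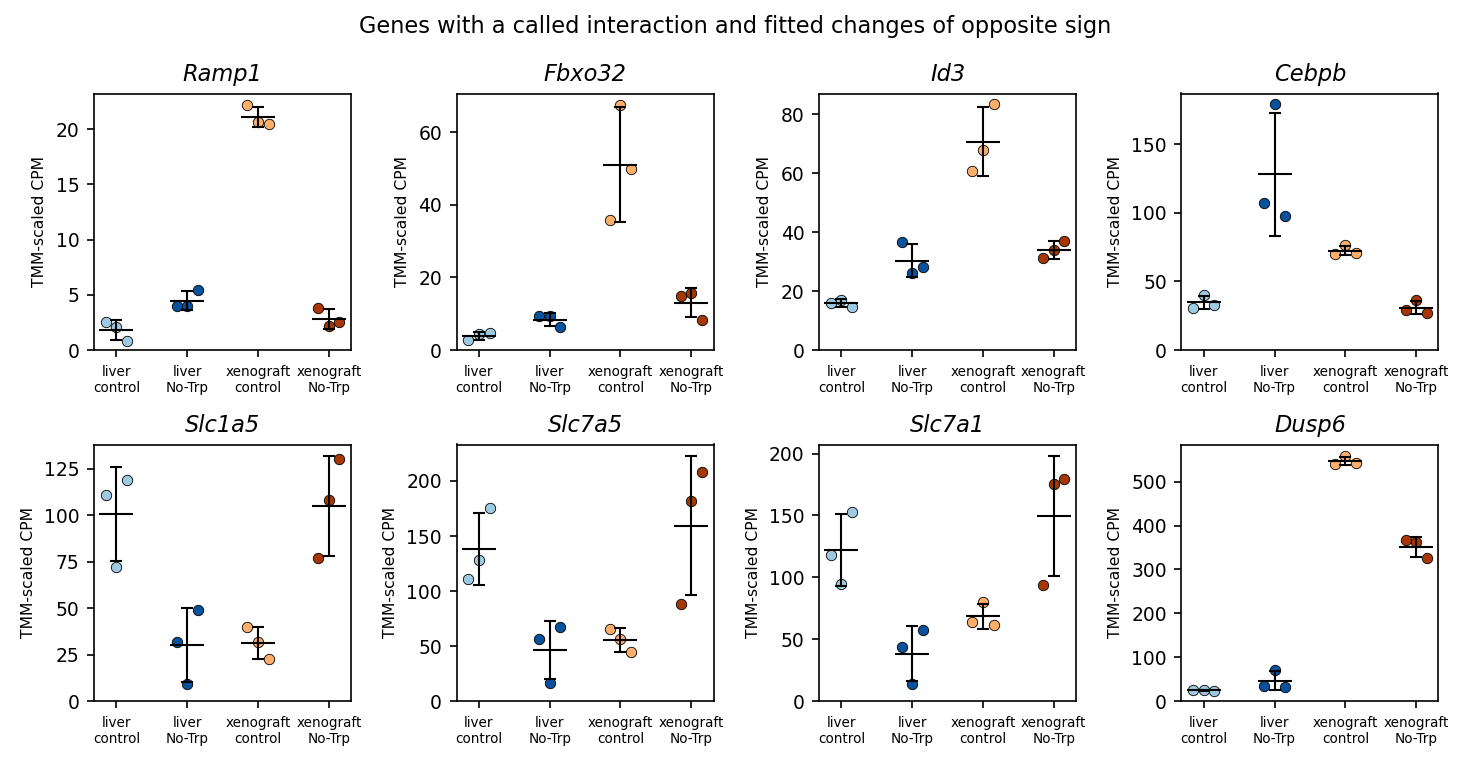
TMM-scaled CPM of 8 genes with a called interaction in the 12 libraries, with each of 4 groups on the x axis; points are mice, wide bars the means and whiskers the SD (n = 3). Ramp1, Fbxo32, Id3, Cebpb and Dusp6 are higher on No-Trp in the livers and lower in the xenografts, and Slc1a5, Slc7a5 and Slc7a1 the reverse, with no overlap between the diets in either model for these 8 genes. Over all genes tested, the diets did not overlap for 45.5% in the livers and 22% in the xenografts.

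Targets of ATF4, the factor that responds to amino acid shortage, did not move as a block. Of 36 listed targets, 4 had a positive and 6 a negative interaction (3 negative without control liver 103 or control xenograft 43, 9 without No-Trp liver 108), and the median change was -0.10 in the livers and 0.76 in the xenografts. Over all genes, 6.01% had a positive and 6.7% a negative interaction. No target passed the test in the xenografts, although 27 of the 36 had a fitted change above 0 there. Fgf21, a hormone that the liver secretes during fasting and protein shortage, rose in the livers from 0.676, 1.24 and 0.839 CPM to 12.2, 21.3 and 14.3 CPM. It held at most 3 reads in every control xenograft and 3, 12 and 4 reads in the No-Trp xenografts, so no xenograft fold is given. Its interaction lost its call without control liver 103 (adjusted p = 0.0553), control xenograft 41 (adjusted p = 0.0613) or control xenograft 43 (adjusted p = 0.0568). Vldlr, a lipoprotein receptor in the same list, rose by 3.41 ± 0.32 in the livers and changed by 0.23 ± 0.28 in the xenografts. Of 20 cytosolic aminoacyl-tRNA synthetases, the enzymes that charge transfer RNAs, 3 had a negative interaction with TMM factors and 13 with library totals. The amino acid response element of ATF4 (searched as TGATGCAA) lay in 6 of 32 promoters of the ATF4 list (18.8%) and in 0.929% of all promoters, counted as described for the promoters of division genes.

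Genes of cell division formed the most uniform group, lowered in the livers and not in the xenografts. All 40 listed genes of mitosis fell in the livers, and 39 of them had a called negative interaction. The exception was Cenpa. The median change of the list was -2.09 in the livers and 0.61 in the xenografts, where none was called. In the xenografts 39 of the 40 had a fitted change above 0 and 29 had diet groups that did not overlap, beside 22% of all genes. The mean log2 level of the list, set to 0 in the control group of each model, was -1.57, -3.67 and -1.68 in No-Trp livers 105, 107 and 108. In No-Trp xenografts 35, 36 and 37 it was 0.42, 0.73 and 0.65, above the control range of -0.04 to 0.03. Of the 39 calls, 28 held without each library in turn.

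Hmmr, a spindle-associated receptor for hyaluronan, led the list with an interaction of -3.54 ± 0.68. It stood at 114, 108 and 136 CPM in the control livers and 31.5, 4.43 and 27.4 CPM in the No-Trp livers, against 22.2, 23.6 and 20.2 CPM and 42.3, 44.6 and 49.0 CPM in the xenografts. Kif11, the kinesin that separates the spindle poles, was at 111, 123 and 151 CPM and then 34.1, 7.38 and 37.4 CPM in the livers. In the xenografts it went from 29.4, 31.1 and 24.1 CPM to 52.8, 60.8 and 66.3 CPM, with an interaction of -3.38 ± 0.61. On the control diet the livers held more of both transcripts than the xenografts, and on the No-Trp diet each xenograft held more than each liver. Kif23, a kinesin of cytokinesis, had an interaction of -3.04 ± 0.48. The xenograft changes of Hmmr (1.04 ± 0.47, adjusted p = 0.351), Kif11 (1.09 ± 0.42, adjusted p = 0.283) and Kif23 (1.03 ± 0.33, adjusted p = 0.216) did not pass the test.

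The promoters of these genes share short sequences. The cell cycle homology region (searched as TTTGAA) and the CCAAT box (searched as CCAAT) are known from promoters of genes that peak late in the cell cycle. Of the 40 mitosis genes, 34 had a RefSeq promoter on GRCm38.p6, and TTTGAA on either strand lay within 250 bases before to 50 after the start in 25 of them (73.5%). The share was 18.1% of all 27025 promoters and 12.7% of the 12170 promoters of genes tested. CCAAT lay in 26 of the 34 (76.5%), beside 37.9% of all promoters and 38.4% of those of genes tested. Among DNA replication genes CCAAT was in 24 of 37 promoters (64.9%) and TTTGAA in 5 (13.5%). Of the 735 genes with a called interaction that fell in the livers only, 581 had a promoter. TTTGAA lay in 22.5% of these and CCAAT in 47.8%. Shown here are the 250 bases before the start of 3 genes of division or nuclear structure that were lowered in the livers, then of 3 genes that moved up in the livers and down in the xenografts. Capitals mark matches, on either strand, to the cell cycle homology region, the CCAAT box, the E-box and the amino acid response element, and each sequence is read 5′ to 3′ on the gene's own strand.
Kif11 (chr19:37376132-37376381, plus strand): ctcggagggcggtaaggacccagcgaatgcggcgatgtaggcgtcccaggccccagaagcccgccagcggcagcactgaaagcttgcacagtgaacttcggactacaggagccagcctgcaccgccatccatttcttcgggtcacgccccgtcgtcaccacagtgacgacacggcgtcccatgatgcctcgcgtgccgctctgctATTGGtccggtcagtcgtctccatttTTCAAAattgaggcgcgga
Lbr (chr1:181842402-181842651, minus strand): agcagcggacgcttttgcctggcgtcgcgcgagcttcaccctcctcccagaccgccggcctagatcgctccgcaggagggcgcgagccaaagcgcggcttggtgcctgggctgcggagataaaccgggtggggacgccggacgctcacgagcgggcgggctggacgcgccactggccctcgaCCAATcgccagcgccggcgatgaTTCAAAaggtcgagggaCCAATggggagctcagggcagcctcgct
Hmmr (chr11:40733438-40733687, minus strand): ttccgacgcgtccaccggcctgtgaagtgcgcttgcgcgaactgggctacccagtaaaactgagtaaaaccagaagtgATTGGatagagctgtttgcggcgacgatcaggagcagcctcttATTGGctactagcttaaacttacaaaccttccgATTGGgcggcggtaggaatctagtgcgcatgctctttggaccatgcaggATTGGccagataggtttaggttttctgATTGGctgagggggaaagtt
Id3 (chr4:136143572-136143821, plus strand): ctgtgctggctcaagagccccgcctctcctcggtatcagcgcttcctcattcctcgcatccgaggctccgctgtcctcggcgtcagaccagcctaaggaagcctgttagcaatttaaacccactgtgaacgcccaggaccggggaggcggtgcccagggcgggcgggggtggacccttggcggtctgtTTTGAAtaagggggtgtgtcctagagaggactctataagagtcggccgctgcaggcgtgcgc
Cebpb (chr2:167688665-167688914, plus strand): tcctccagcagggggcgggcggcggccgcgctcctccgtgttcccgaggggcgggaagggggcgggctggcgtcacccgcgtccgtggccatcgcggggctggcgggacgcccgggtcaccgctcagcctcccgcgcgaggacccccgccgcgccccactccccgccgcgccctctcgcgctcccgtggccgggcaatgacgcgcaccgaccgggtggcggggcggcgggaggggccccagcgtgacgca
Ramp1 (chr1:91179572-91179821, plus strand): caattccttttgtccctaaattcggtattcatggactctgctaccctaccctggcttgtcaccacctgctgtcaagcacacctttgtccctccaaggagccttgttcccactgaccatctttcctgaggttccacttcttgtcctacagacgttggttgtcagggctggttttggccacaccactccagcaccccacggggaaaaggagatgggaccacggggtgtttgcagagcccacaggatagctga
Kif11 holds 1 TTTGAA and 1 CCAAT, Lbr 1 TTTGAA and 2 CCAAT, Hmmr 5 CCAAT and Id3 1 TTTGAA, while Cebpb and Ramp1 hold none of the 4 in this window. Among genes lowered in the livers whose promoters are not shown, Kif23 and Rrp1b hold 1 CCAAT each and Ddx21 none of the 4. A match is a description of these letters and not evidence of binding.

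DNA replication genes followed the mitosis genes at a smaller size. Of 45, 35 had a called negative interaction, none a positive one, and the median change was -1.50 in the livers and 0.21 in the xenografts. Cdc6, which loads the replicative helicase, was at 40.2, 39.6 and 43.5 CPM in the control livers and 9.04, 2.95 and 8.94 CPM in the No-Trp livers. In the xenografts it was at 18.6, 16.9 and 11.1 CPM on the control diet and 18.1, 28.5 and 21.6 CPM on the No-Trp diet, which overlap. The interaction was -3.11 ± 0.51. Rrm2, a subunit of ribonucleotide reductase, and Uhrf1, which maintains DNA methylation at the fork, had interactions of -2.88 ± 0.64 and -2.86 ± 0.67. Lbr, the lamin B receptor of the inner nuclear membrane and no member of either list, fell in the livers by 1.79 on the log2 scale and had an interaction of -2.41 ± 0.26, among the smallest adjusted p-values (0.00165). Its xenograft change was 0.62 ± 0.18 with no overlap between the diets (adjusted p = 0.166). Dnah14 overlaps Lbr on the other strand.

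Ribosome biogenesis genes, a classical MYC program, were lowered in the livers as well. Of 50, 29 had a called negative interaction and none a positive one, and the median change was -1.01 in the livers and 0.16 in the xenografts. The count was 9 without control liver 103, 15 without control xenograft 40, 16 without control xenograft 43 or No-Trp xenograft 36 and 19 without No-Trp xenograft 37. Ddx21, a nucleolar helicase, was at 438, 447 and 618 CPM in the control livers and 246, 156 and 269 CPM in the No-Trp livers, and at 147, 193 and 173 CPM and then 241, 265 and 248 CPM in the xenografts. The groups did not overlap in either model and the interaction was -1.72 ± 0.30. Rrp12, a factor in the export of ribosomal subunits, had an interaction of -2.01 ± 0.36. The E-box bound by MYC and its partner MAX (searched as CACGTG) lay in 11 of 46 promoters of the list (23.9%), beside 7.24% of all promoters and 9.7% of those of genes tested.

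**Figure D3:**
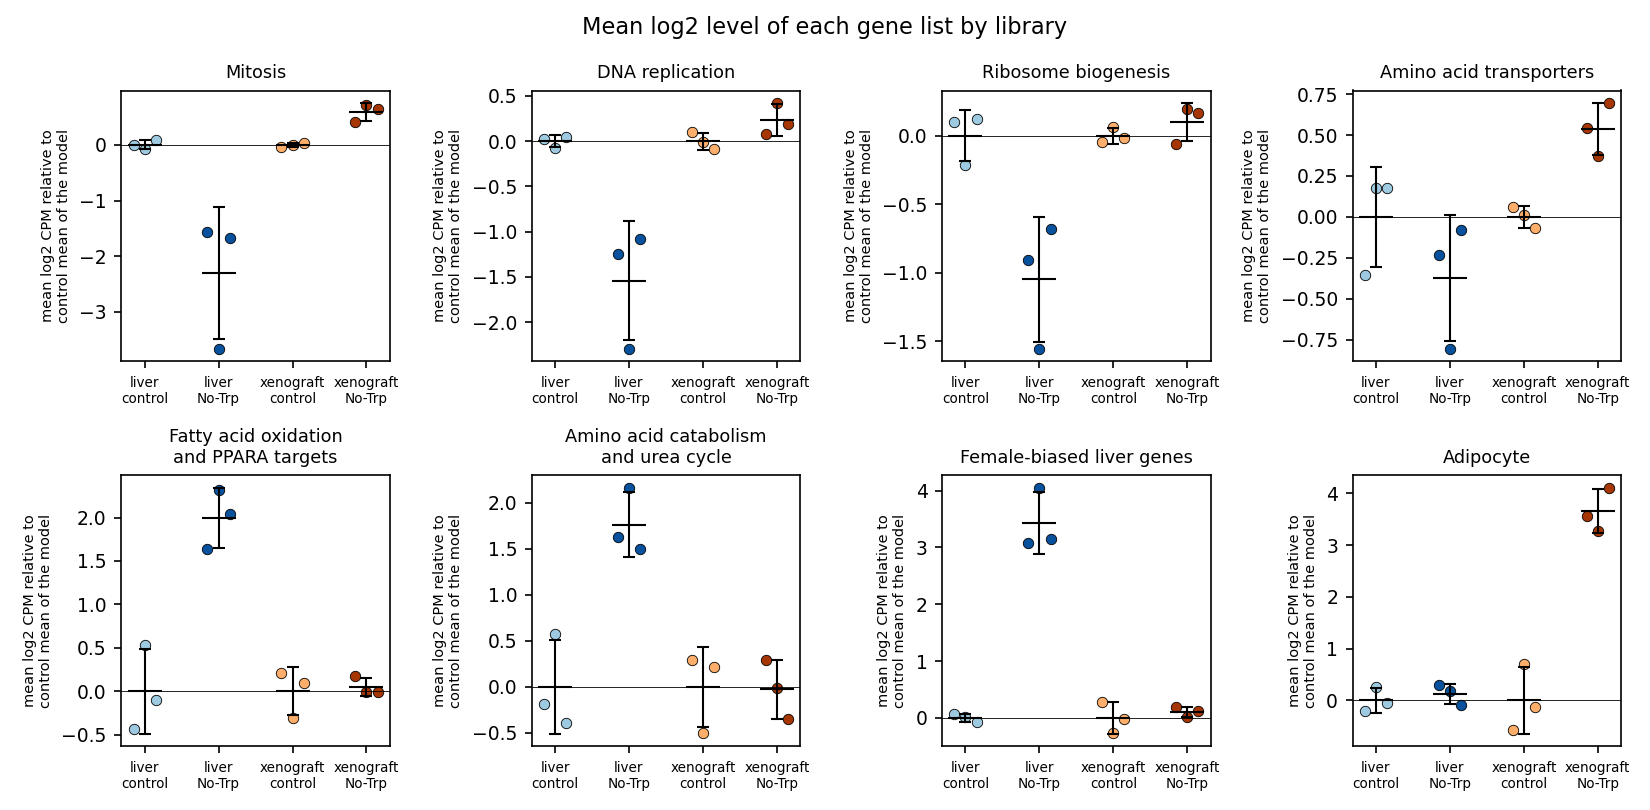
Mean log2 CPM of 8 gene lists in each library (y axis), relative to the mean of the control group of the same model, with the 4 groups on the x axis; points are mice, wide bars means and whiskers SD (n = 3). The No-Trp livers lie at -3.67 to -1.57 for mitosis while the No-Trp xenografts lie at 0.42 to 0.73, and the adipocyte genes show the reverse split, near 0 in the livers and 3.27 to 4.11 in the No-Trp xenografts.

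Beside the fall of division genes, erythroid and neutrophil transcripts also fell in the livers. Of 20 erythroid genes, 13 were tested, 12 of them fell in the livers and 8 had a called negative interaction, a count of 3 without 103, 105, 107, 40, 43 or 35, of 4 without 36 and of 5 without 41. Summed over the list, control livers held 107 to 963 CPM and No-Trp livers 26.5 to 47.9 CPM, while xenografts held 59.2 to 97.0 CPM on the control diet and 72.2 to 189 CPM on the No-Trp diet. Of the 20 genes, 5 were at 0 in all No-Trp livers and 6 in all libraries of each other group. Alas2, the first enzyme of heme synthesis in red cell precursors, was at 16.5, 105 and 96.6 CPM in the control livers and 4.80, 5.66 and 6.76 CPM in the No-Trp livers. It was between 2.06 and 3.66 CPM in the xenografts, and its interaction was -4.06 ± 0.74. Outside the erythroid list, Fam132b, the hormone erythroferrone of erythroid cells, had an interaction of -3.29 ± 0.77 and Fhdc1, a formin, one of -3.44 ± 0.69. Neutrophil genes summed to 187 to 240 CPM in the control livers and 13.5 to 116 CPM in the No-Trp livers, against 50.6 to 88.2 and 74.5 to 122 CPM in the xenografts, and 3 of 11 had a called negative interaction (0 without 103, 40, 43, 36 or 37, 1 without 105, 107, 41 or 35, and 5 without 108). The part of erythroid and neutrophil cells in the fall of division genes was not tested, and neither was the part of tumor burden.

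Of the 1436 genes that rose in the livers and were not called in the xenografts, 681 also had a called interaction and a xenograft adjusted p above 0.05, of which 642 were also expressed in the xenografts at 1 CPM or more in a diet group. For 359 of the 681, the 95% interval of the xenograft change lay within a log2 change of 1 either way. For the rest the interval reached beyond that size. The median change of the class was 1.62 in the livers and -0.23 in the xenografts. Selection on the interaction favors xenograft values of the other sign, here and in the next class. Among the 1317 genes that fell in the livers and were not called in the xenografts, 735 met the same conditions, with medians of -1.60 and 0.36, and 335 of these had such an interval. Calls without each library in turn held for 319 of the 681 and 343 of the 735.

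Fatty acid oxidation and other targets of PPARA, the receptor that senses fatty acids, gave 23 positive interactions in 44 genes and no negative one. The median change was 1.54 in the livers and 0.02 in the xenografts. Cyp4a14 (chr4:115486200-115496142, minus strand), a fatty acid hydroxylase and classical PPARA target, rose in the livers from 4.05, 36.6 and 14.7 CPM to 1673, 3310.0 and 1753 CPM. Xenograft levels were 12.2, 2.55 and 11.2 CPM on the control diet and 7.76, 7.51 and 3.82 CPM on the No-Trp diet. The interaction of 7.36 ± 1.09 was the largest of the list once Cyp4a31, with at most 3 reads in each library of a group, is set aside. Cyp4a10 had an interaction of 5.45 ± 1.09. Both belong to a family of near-identical genes between which the counting could split reads. Mfsd2a, a transporter of lysophospholipids induced by fasting, rose in the livers from 3.18, 13.5 and 3.79 CPM to 218, 318 and 342 CPM and stayed between 7.80 and 16.6 CPM in the xenografts (interaction 5.09 ± 0.71). Within the same list, Cd36 and Acsl1 were the 2 genes called in the xenografts, where both rose. These xenograft calls held in 5 and 3 of the 12 fits with a library left out.

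Enzymes of amino acid catabolism and the urea cycle gave 19 positive interactions in 36 genes and no negative one, a count of 7 without 103, 10 without 36 or 37 and 11 without 107 or 40. The median change was 1.68 in the livers and -0.20 in the xenografts. Tdo2 (chr3:81957090-81976202, minus strand), the liver enzyme that opens the tryptophan ring and starts the kynurenine pathway, was at 28.4, 347 and 34.5 CPM in the control livers and 1986, 2962 and 2158 CPM in the No-Trp livers. The xenografts held 14.2, 4.07 and 17.9 CPM and then 9.29, 7.17 and 5.30 CPM. Control liver 102 stood well above its group, and the No-Trp livers stood above all others. The interaction of 4.84 ± 1.22 had an adjusted p of 0.0253 and lost its call in 6 of 12 fits with a library left out (without 103, 107, 40, 43, 36 or 37, adjusted p of 0.0503 to 0.0642). Tdo2 was the only 1 of 12 kynurenine pathway genes with a called interaction. Gpt, which moves the amino group of alanine, had an interaction of 3.04 ± 0.50 that was called without each library. Ahr, the receptor for tryptophan metabolites, rose in the livers from 16.8, 24.7 and 19.2 CPM to 50.2, 54.3 and 56.4 CPM. Xenograft levels were 93.6, 182 and 124 CPM and then 97.0, 109.5 and 114 CPM, and the interaction was 1.72 ± 0.31.

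Genes that are higher in female than in male liver rose in these male livers. Of 18 listed, 16 were tested, 12 rose in the livers and 8 had a called positive interaction, with a median change of 3.31 in the livers and -0.42 in the xenografts. Cyp2b9 was at 4.05, 3.49 and 5.91 CPM in the control livers and 273, 741 and 375 CPM in the No-Trp livers, against 0.638 to 2.75 and 0.891 to 1.53 CPM in the xenografts (interaction 7.30 ± 0.74). Cyp3a41a and Cyp3a44, cytochrome genes with near-identical relatives, had interactions of 8.76 ± 1.34 and 8.07 ± 1.56. Socs2, an inhibitor of growth hormone signaling, rose in the livers by 2.38 ± 0.39 and changed by -0.19 ± 0.36 in the xenografts.

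Of 18 circadian clock genes, 8 rose in the livers and none was called in the xenografts. A positive interaction was called for 6, a negative one for none, and 12 had no called difference. Dbp, a clock-driven transcription factor, was at 4.15, 11.8 and 6.31 CPM in the control livers and 41.8, 62.1 and 31.6 CPM in the No-Trp livers, against 10.5 to 24.0 and 5.54 to 14.8 CPM in the xenografts (interaction 3.31 ± 0.65). Per3 (2.84 ± 0.56) and Tef (2.14 ± 0.46) followed. Sphk2 overlaps Dbp and Camta1 overlaps Per3. The hour of dissection is not given in the sources used here.

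Several genes with the smallest adjusted p-values belong to no list used here. Ctsl, the lysosomal protease cathepsin L, rose in the livers from 529, 469.9 and 519.9 CPM to 2731, 4438 and 2580.5 CPM. The xenografts held 682, 851 and 1005 CPM and then 529, 631 and 673 CPM, with an interaction of 3.15 ± 0.34. Htatip2 rose from 27.99 to 29.1 CPM in the control livers to 149.6 to 206 CPM in the No-Trp livers and stayed between 11.8 and 19.3 CPM in the xenografts (interaction 2.48 ± 0.25). Whamm, a nucleator of actin filaments, had an interaction of 1.99 ± 0.22 and Ecm1, a matrix protein, one of 2.08 ± 0.24. Tox, a transcription factor known from T cells, rose from 0.917 to 1.24 CPM to 26.5 to 28.8 CPM in the livers and was between 0.914 and 5.05 CPM in the xenografts (interaction 4.91 ± 0.83). Trp53inp1, a p53 target, was the only 1 of 23 p53 targets with a called interaction, at 3.07 ± 0.38. Apcs, the acute phase protein serum amyloid P, rose from 37.0 to 84.6 CPM to 1408 to 3151 CPM in the livers and had an interaction of 5.87 ± 0.91. Other acute phase genes went the other way. Saa1 and Saa2 fell in the livers and had negative interactions, both called without each library in turn. Of 19 acute phase genes tested, 2 had a positive and 4 a negative interaction. Their median xenograft change was 1.07, and 11 had xenograft diet groups without overlap, beside 22% of all genes.

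Hepatocyte markers moved with the genes that rose in the livers only. Summed over 28 markers, control livers held 23274 to 72988 CPM and No-Trp livers 88180 to 215182 CPM, while xenografts held 1632 to 4181 CPM on the control diet and 1629 to 3602 CPM on the No-Trp diet. In the livers 12 of the 28 rose, beside 9.32% of all genes. A positive interaction was called for 3, beside 6.01% of all genes. That count was 14 without control liver 102, 8 without 41, 2 without 36 or 37, 1 without 101, 107, 40 or 43 and 0 without control liver 103. None of the markers was at 0 in every library of a group. Their part in the rise of liver metabolic genes was not tested, and neither was the part of tumor burden.

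Genes with a called interaction that were called in the xenografts and had a liver adjusted p above 0.05 were 13, of which 12 rose and Col4a3 fell. Id3, described above, fell in the xenografts too but had a liver adjusted p of 0.00368 with a change under the fold threshold, and is not counted here. Of the 12, Retn, Cfd, Plin1, Adipoq and Lpl are adipocyte markers, while Pnpla3 and Acacb belong to lipid storage and synthesis. Retn (chr8:3655770-3660110, plus strand), the hormone resistin, was at 0.196, 0.798 and 0.122 CPM in the control xenografts and 27.2, 22.4 and 44.8 CPM in the No-Trp xenografts. In the livers it held at most 6 reads in any library. Cfd (chr10:79890853-79892655, plus strand), the complement protease adipsin, rose in the xenografts from 2.79, 16.7 and 4.75 CPM to 207, 141 and 339.8 CPM and stayed between 1.17 and 1.93 CPM in the livers (interaction -5.19 ± 0.85). Lpl, the lipase of lipoprotein triglyceride, rose from 5.93, 13.2 and 15.5 CPM to 80.4, 104 and 137 CPM, beside 114 to 169 and 168 to 287 CPM in the livers (interaction -2.45 ± 0.47).

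Pnpla3 (chr15:84167837-84187236, plus strand), a lipid droplet hydrolase, had the smallest adjusted p among these genes (0.00165). It was at 0.245, 0.199 and 0.305 CPM in the control xenografts and 5.70, 11.5 and 8.10 CPM in the No-Trp xenografts, and its liver groups of 3.51 to 8.73 and 4.004 to 4.74 CPM overlapped. The interaction was -5.57 ± 0.59. Acacb, which makes the malonyl-CoA that restrains fat oxidation, had an interaction of -3.72 ± 0.74, Plin1, a lipid droplet coat protein, one of -4.40 ± 0.90 and Adipoq, the hormone adiponectin, one of -4.02 ± 1.13. The call of Adipoq was lost in 8 of 12 fits with a library left out (all but those without 103, 105, 41 and 36, adjusted p of up to 0.115), and that of Plin1 without control liver 103 (adjusted p = 0.065). Fabp4, a fatty acid carrier of adipocytes, went from 7.75, 47.4 and 8.23 CPM to 191, 181 and 322 CPM with an interaction of -4.51 ± 0.84, but its xenograft change of 3.44 ± 0.62 was not called (adjusted p = 0.0573).

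All 10 listed adipocyte markers had a fitted change above 0 and diet groups that did not overlap in the xenografts, beside 22% of all genes without overlap. Of the 10, 5 were called higher there (0.116% of all genes), and 6 had a called negative interaction (6.7% of all genes). Their sum was 42.8 to 98.5 CPM in the control xenografts and 523 to 979 CPM in the No-Trp xenografts, beside 155 to 223 and 204 to 328 CPM in the livers, and none was at 0 in every library of a group. Skeletal muscle markers also stood higher in the No-Trp xenografts, with sums of 5.86 to 29.9 CPM on the control diet and 48.6 to 87.8 CPM on the No-Trp diet, while 1 of 12 had a called interaction. Keratinocyte markers summed to 48.9 to 260 CPM and 51.1 to 76.8 CPM. The part of such neighbouring host cells in the xenograft changes was not tested.

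The other members of the class are not in the adipocyte, muscle or keratinocyte lists. Apod, a lipocalin that carries small lipids, rose from 2.79, 6.38 and 5.18 CPM to 47.6, 74.1 and 62.2 CPM in the xenografts and was between 0.559 and 1.35 CPM in the livers (interaction -3.32 ± 0.55). Cxcl13, a B cell chemokine, was at 1.72, 0.279 and 0.305 CPM and then 16.3, 49.5 and 52.9 CPM. Its interaction of -4.76 ± 1.21 lost its call without 102, 107, 43, 36 or 37 (adjusted p of up to 0.0845 without 102). Fcna, a soluble pattern receptor of macrophages, and Ap1s3, a subunit of a clathrin adaptor, had interactions of -1.70 ± 0.35 and -1.71 ± 0.31. Myh3, an embryonic myosin of skeletal muscle, held 1 read in each control xenograft and 18, 22 and 29 reads in the No-Trp xenografts, so its fitted change is not given. Col4a3, a basement membrane collagen, fell from 1.57, 3.75 and 4.08 CPM to 0.399, 0.334 and 0.212 CPM (interaction 3.93 ± 0.80). The xenograft diet change was called without each library in turn for Apod, Lpl, Plin1, Pnpla3 and Retn among these 13 genes.

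**Figure D4:**
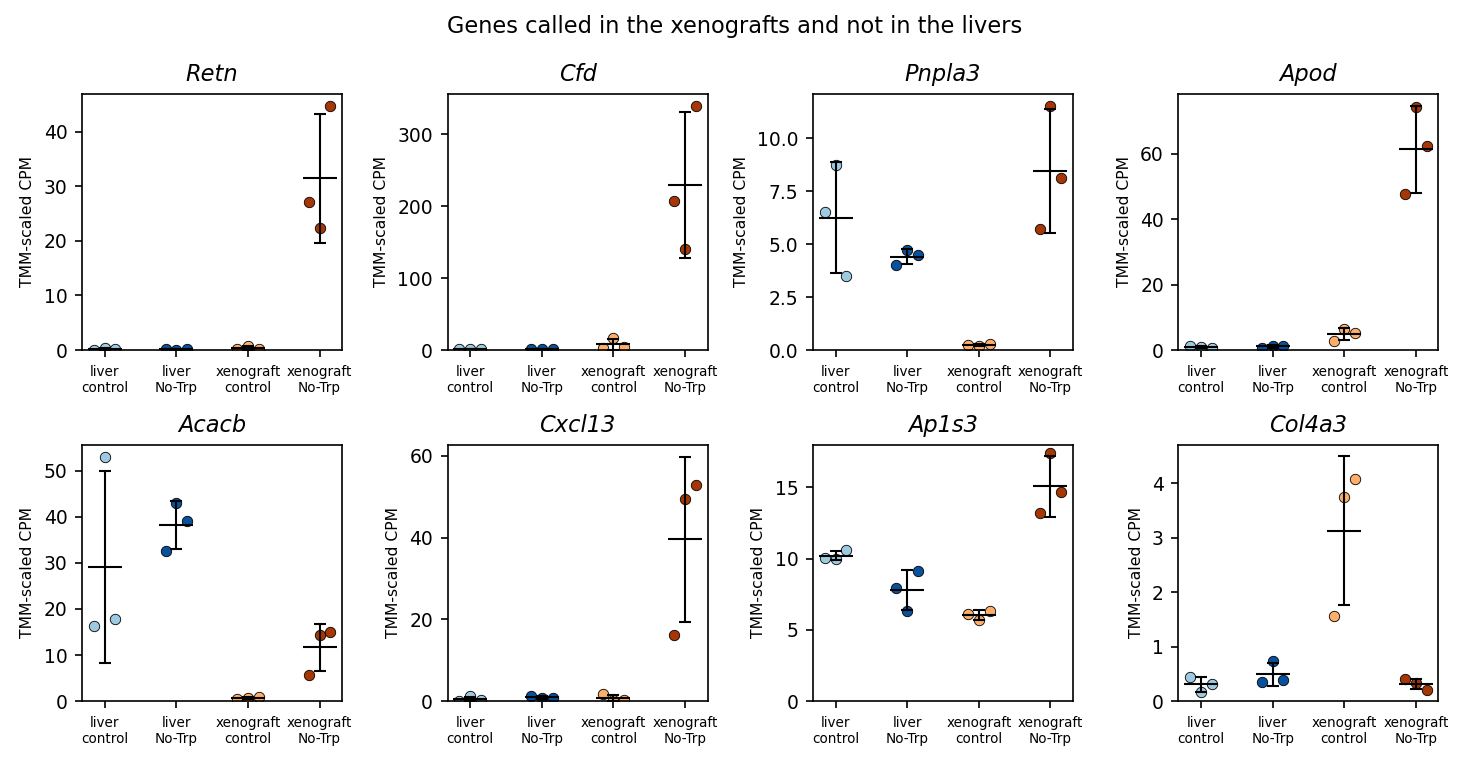
TMM-scaled CPM of 8 genes called in the xenografts and not in the livers, with the 4 groups on the x axis; points are mice, wide bars means and whiskers SD (n = 3). In 7 of them the No-Trp xenografts lie above all control xenografts, and in Col4a3 they lie below, at 0.212 to 0.399 CPM against 1.57 to 4.08.

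A single gene passed all 3 tests with the same direction in both models. Plin4, a lipid droplet protein, rose in the livers from 9.89, 14.3 and 10.3 CPM to 50.2, 34.7 and 28.6 CPM and in the xenografts from 1.62, 3.79 and 2.32 CPM to 55.5, 21.4 and 72.4 CPM. The rise was larger in the xenografts by 2.54 ± 0.60 on the log2 scale (interaction -2.54), and all 3 calls held without each library in turn. Hdgfl2 overlaps it. The adenosine receptor gene Adora1, the lipid droplet gene Cidec and Acsl1, an enzyme that activates fatty acids, rose in both models without a called interaction. In the 12 fits with a library left out, the xenograft call held in 12 for Adora1, 9 for Cidec and only 3 for Acsl1. The liver call held in 12, 12 and 10. For Adora1 the change was 2.50 ± 0.28 in the livers and 3.01 ± 0.35 in the xenografts, an interaction of -0.50 ± 0.44. No gene fell in both models by the test.

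Nras was at 89.3 to 105 CPM and then 46.7 to 66.3 CPM in the livers, and at 414 to 483 and 233 to 392 CPM in the xenografts, with no called interaction (-0.21 ± 0.28). Trp53 was at 115 to 133 and 46.7 to 75.6 CPM in the livers and at 17.5 to 22.8 CPM in the 6 xenografts. Its interaction of -1.07 ± 0.25 was not called without control liver 103, No-Trp liver 107 or No-Trp xenograft 35, with values of -1.01, -0.91 and -0.94. The mouse symbol Myc may take reads of the human transgene in the livers. Its interaction of 1.66 ± 0.51 kept its call in 1 of the 12 fits with a library left out, the one without liver 105, and liver 108 alone stood at 128 CPM among No-Trp livers at 33.3 and 76.1 CPM. The fitted liver change of Myc ranged from 0.74 to 1.64 across the alternatives. The paper counted human MYC reads separately and reported lower MYC in No-Trp than in control livers. The change of the mouse symbol is no measure of the transgene.

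Among the other lists, proteasome subunits (31), interferon-stimulated genes (34) and lymphocyte markers (15) had no called interaction. For the counts that follow, the shares over all genes were 6.01% positive and 6.7% negative. Counts near these shares are not read as results about the lists. Of 53 subunits of oxidative phosphorylation, 3 had a positive interaction, with 44 fitted changes below 0 in the xenografts and a median there of -0.26. Cholesterol synthesis gave 4 negative interactions in 25 genes and de novo lipogenesis 5 negative and 1 positive in 20. The acute phase list gave 2 positive and 4 negative in 19, NRF2 targets 5 and 2 in 22, bile acid synthesis 2 positive in 13 and the insulin-like growth factor axis 3 positive in 17. The hypoxia and glycolysis (24 genes tested), unfolded protein response (20) and AHR (9) lists gave 2 positive each. The matrix list (36) gave 3 negative and the macrophage list (22) 1 negative. Male-biased liver genes (14) and endothelial markers (22) gave 1 of each sign, the oncofetal list (16) 1 positive and 2 negative, and keratinocyte markers (9) 1 positive.

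**Figure D5:**
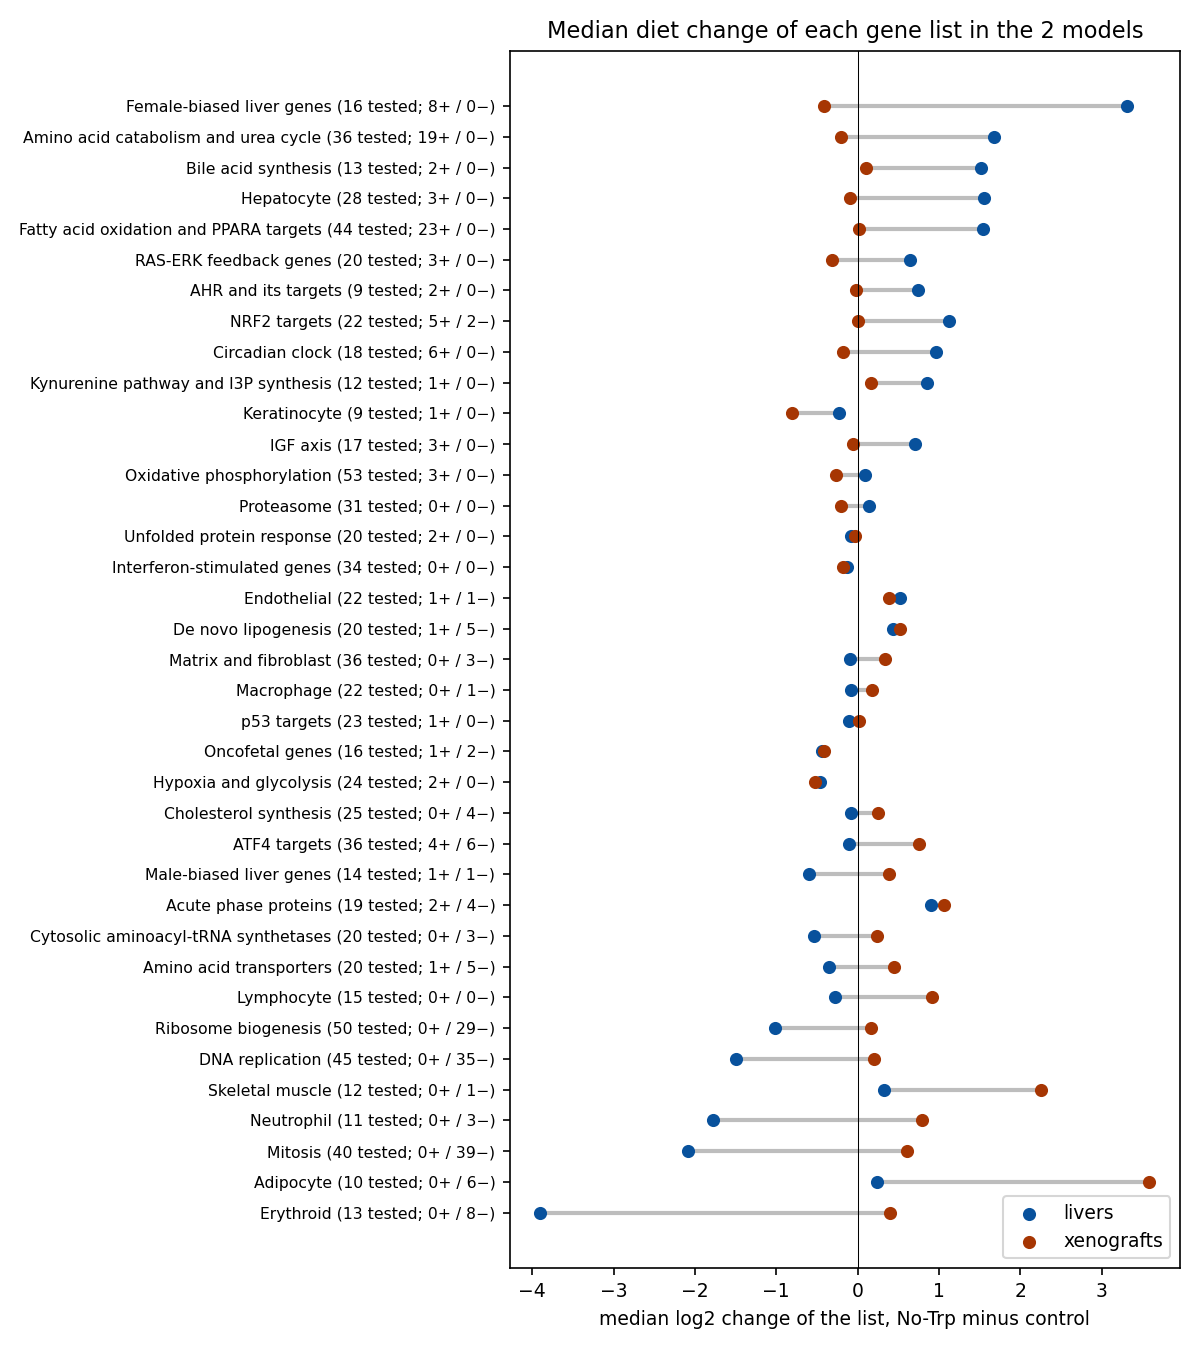
Median log2 diet change of 37 gene lists (rows, with the number of genes tested and of called positive and negative interactions), in the livers and in the xenografts, on the x axis. Lists at the top are higher in the livers, such as the female-biased genes at 3.31 against -0.42, and those at the bottom lower, such as mitosis at -2.09 against 0.61.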

How the data were processed

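PolyA RNA from 6 mouse livers with tumors and 6 xenograft tumors was sequenced by a commercial provider. Per the study's methods and the submitters' processing notes, reads were trimmed with Trim Galore, aligned with STAR 2.7.2b to mm10 and sorted with SAMtools 1.9. The authors deposited raw counts per gene from HTSeq, 1 table per library, with no normalization. The strand setting and the rule for overlapping genes are not given in the sources used here. The rows of reads without a gene, 24.7% to 39.4% of a library, were left out.

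The 12 tables were joined into 1 matrix. Genes were filtered with filterByExpr, scaled by TMM, and fitted with the robust quasi-likelihood model of edgeR 4.0.16 in R 4.3.3 with 1 mean per group. Contrasts were the diet change in each model and their difference. Genes were called at 0.05 after Benjamini-Hochberg adjustment over all 15472 genes, with a log2 change of at least 1 in size. Pairs of libraries within a group differed by more than sampling noise (chi-square per degree of freedom 36.8 to 291). The labels name separate mice. Library depth, 14660963 to 26085349 counts, leaves genes with a few reads imprecise.

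The members, gene lists and tests were chosen with earlier results of these data known, so the lists give no independent evidence. Genes were named by rule: all genes called with opposite signs, those with the largest interaction in each class and up to 3 per list, the 10 smallest adjusted p-values, and genes the study asks about. A further rule was added after the values were seen. It took in all members of the classes with few genes and all genes called in the xenografts. Only those that serve a comparison appear in the text, and genes with at most 3 reads in every library of a group are given without a fold. Lists are described by counts and medians, and list levels use a prior count of 2. Of the genes tested, 15351 matched GENCODE M21, 581 through an older symbol. Promoters are from RefSeq on GRCm38.p6, 250 bases before to 50 after the start, and were searched on both strands for the 4 motifs spelled out in the text and for the PPAR, AHR, interferon and STAT elements, whose shares are not reported. The model script was tested on simulated counts. Alternatives were DESeq2 1.42.0, other scaling, other low-count filters, no fold threshold, Rn45s left out, the resubmission mark as a covariate or a filter, and each library left out in turn.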

Additional observations from a re-analysis of the deposited data

Results flagged for a closer look

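These results stand out because the diet change itself was tested for a difference between the models, by edgeR's interaction term with Benjamini-Hochberg adjustment, and the difference passed the threshold. Groups of 3 libraries are too small for a test of single outlying samples. The difference was positive in 930 genes and negative in 1036. Values are interactions on the log2 scale.

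Among the genes described, the change was greater in the livers for Cyp3a41a (8.76), Cyp3a44 (8.07), Cyp4a14 (7.36), Cyp2b9 (7.30), Apcs (5.87), Cyp4a10 (5.45), Mfsd2a (5.09), Tox (4.91), Tdo2 (4.84), Adamdec1 (4.32), Ramp1 (4.20), Col4a3 (3.93), Dbp (3.31), Vldlr (3.17), Ctsl (3.15), Fgf21 (3.13), Cebpb (3.12), Trp53inp1 (3.07), Fbxo32 (3.07), Gpt (3.04), Per3 (2.84), Socs2 (2.57), Htatip2 (2.48), Vmp1 (2.16), Igfbp4 (2.14), Tef (2.14), Ecm1 (2.08), Whamm (1.99), Id3 (1.99), Ahr (1.72), Myc (1.66), Dusp6 (1.56) and Etv1 (1.38).

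The change was lower in the livers for Retn (-6.51), Pnpla3 (-5.57), Cfd (-5.19), Cxcl13 (-4.76), Myh3 (-4.74), Fabp4 (-4.51), Plin1 (-4.40), Alas2 (-4.06), Adipoq (-4.02), Acacb (-3.72), Hmmr (-3.54), Slc1a5 (-3.49), Fhdc1 (-3.44), Kif11 (-3.38), Apod (-3.32), Fam132b (-3.29), Cdc6 (-3.11), Slc7a5 (-3.09), Kif23 (-3.04), Rrm2 (-2.88), Uhrf1 (-2.86), Slc7a1 (-2.80), Plin4 (-2.54), Lpl (-2.45), Lbr (-2.41), Rrp12 (-2.01), Ddx21 (-1.72), Ap1s3 (-1.71), Fcna (-1.70) and Trp53 (-1.07). The values of Myh3, with 1 read in each control xenograft, of Fgf21, with at most 3 reads in each control xenograft, and of Retn, with at most 6 reads in each liver, depend on the fit and are no measure of size. The value of Myc is for the mouse symbol, which may take reads of the human transgene. Saa1 and Saa2, described above without values, are left out.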

How the results depend on the processing

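All 1966 interaction calls kept their sign in every alternative in which the gene was tested, and the cause of the changes in number was not tested. DESeq2 called 10 genes with opposite signs that were higher in the livers and 17 that were lower, and 75 and 32 genes up and down in the xenografts only, which here means a called interaction with an adjusted p above 0.05 in the other model. Library totals gave 437 positive and 1825 negative interactions, with 351 genes up and 1296 down in the livers only. Without a low count filter there were 4 genes with opposite signs and 3 down in the xenografts only. With at least 10 counts in every library these were 1 and 0, with 4 up in the xenografts only. The resubmission covariate gave 1 gene with opposite signs, and 6 up and 0 down in the xenografts only. In the 8 libraries without the resubmission mark there were 9 positive and 6 negative interactions, 9 and 5 genes up and down in the livers only, and 0 in each of the other classes, with 4239 genes at an unadjusted p under 0.05. With no fold threshold 1119 genes were down in the livers only, and with Rn45s left out 2 were down in the xenografts only.

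Leaving out 1 library at a time gave 449 to 1386 positive and 467 to 1195 negative interactions, 0 to 6 and 0 to 7 genes with opposite signs up and down in the livers, 323 to 1148 and 329 to 938 up and down in the livers only, and 5 to 21 and 0 to 7 up and down in the xenografts only. No paired analysis was possible because the groups share no replicate numbers. With 3 mice per group and a biological coefficient of variation of 30.7%, the median standard error of the interaction was 0.401 on the log2 scale, and genes with few reads are the least certain.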

Other observations

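Among genes called in the xenografts without a called interaction, Als2cl rose there from 32.3, 31.6 and 29.1 CPM to 86.3, 50.3 and 77.6 CPM, with an interaction of -0.51 ± 0.25. The predicted gene Gm14005 fell there from 55.6, 53.3 and 82.2 CPM to 28.7, 26.0 and 25.2 CPM, with an interaction of 0.85 ± 0.33. Afp, the fetal counterpart of albumin, fell in the livers from 2661, 821 and 1709 CPM to 474, 88.1 and 712 CPM. It was between 28.2 and 79.6 CPM in the xenografts, and its interaction of -1.50 ± 0.87 was not called. Cdkn1a, which encodes the cell cycle inhibitor p21, was at 81.7, 47.7 and 103 CPM in the control livers and 148, 111 and 132 CPM in the No-Trp livers, with an interaction of 0.67 ± 0.37.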
